A study of Danio rerio with 12 samples.

Results

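The comparison described here is the genotype by amputation interaction in adult zebrafish hearts: the change from unamputated to amputated hearts in dnHIF1a fish, minus the same change in wild-type (WT) fish. It was computed for every probe set of an Affymetrix zebrafish array that is not an AFFX control, 15502 of the 15617 probe sets in the table, from all 12 of the 12 arrays. A negative value means that the gene's response to amputation was lower in dnHIF1a hearts than in WT hearts, and a positive value that it was higher. All differences are in log2 units, in which 1 unit is a doubling.

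Each of the 4 groups held 3 arrays of total heart RNA from sexually mature adults. The WT fish were of the AB line. The dnHIF1a fish carried 1 insertion with cmlc2a:Ert2-Cre-Ert2 and cmlc2a:LnL:GFP and another with cmlc2a:LrL:dnHIF1a, as the genotype label writes them, so both the inducible recombinase and the dominant-negative HIF1a were placed behind the promoter of a heart muscle gene, and other heart cells were not the cells meant to express them. Hearts of each line were untreated or taken 7 days after amputation. The labels used here name neither the inducing treatment nor the background strain of the transgenic line, and they do not say whether RNA was pooled or whether the 3 arrays of a group came from separate animals, so p-values measure the spread between arrays. Effects of the dominant-negative protein and of any other difference between the lines cannot be told apart.

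HIF1a is a transcription factor subunit that is degraded when oxygen is plentiful and, when oxygen is low, binds its partner and switches on genes for glycolysis, vessel growth and survival. A dominant-negative form competes for the partner or the DNA without switching genes on. Zebrafish hearts regrow after the tip of the ventricle is cut off: the epicardium and fibroblasts lay down matrix, leukocytes enter the wound, and heart muscle cells next to it dedifferentiate and divide.

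Heart muscle identity was present on every array. The transcript of myl7, the atrial and ventricular myosin light chain also called cmlc2, read 14.58 to 14.80 on all 12 arrays, close to the highest value of each array (14.86 to 15.04). Arrays of a group correlated at 0.992 to 0.996 across probe sets, and arrays of different groups at 0.976 to 0.990. A principal component with 36.4% of the variance separated amputated from unamputated hearts, and the next, with 29.6%, separated the lines. On the former, the 3 amputated dnHIF1a arrays scored 5.08 to 11.4, between the 6 unamputated arrays (-19.3 to -16.1) and the 3 amputated WT arrays (23.4 to 30.9). Unamputated WT array 1 lay apart from the other arrays of its group on a further component, with a score of -14.9 against -4.53 and 3.09. Without it, 356 probe sets were called in the interaction in place of 347. Arrays are named below by group and number, and equal numbers were not taken to pair arrays of different groups, since the labels name no pairing.

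The transgene could not be followed, since the files do not say whether any probe set detects it. The zebrafish HIF1a gene hif1ab read 10.34, 9.37 and 9.67 in unamputated WT, 9.57, 9.58 and 9.42 in amputated WT, 9.61, 9.39 and 9.58 in unamputated dnHIF1a and 9.57, 9.56 and 9.62 in amputated dnHIF1a hearts. All 4 groups overlapped, with unamputated WT array 1 highest, and the interaction was 0.33 ± 0.25 (SE, adjusted p = 0.561).

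Fewer probe sets changed with amputation in dnHIF1a than in WT hearts, and the interaction was called for a smaller number still. The interaction passed the test (limma, Benjamini-Hochberg adjusted p under 0.05) for 347 probe sets, 2.24% of those tested, of which 210 (1.35%) had a lower and 137 (0.884%) a higher response in dnHIF1a hearts. The size of the called differences had a median of 0.85 and a range of 0.36 to 3.23. In WT hearts 3532 probe sets (22.8%) changed with amputation, 1702 higher (11%) and 1830 lower (11.8%). In dnHIF1a hearts 1511 (9.75%) changed, 877 higher (5.66%) and 634 lower (4.09%). With the erythrocyte covariate described below, the order was reversed: 614 probe sets passed in WT and 1402 in dnHIF1a hearts. Across the 8793 genes, taken by the probe set of highest mean, the responses of the lines correlated at r = 0.588, a description over genes that are not independent. The WT and dnHIF1a responses share no array.

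A lower interaction was mostly a rise in WT hearts that was absent or smaller in dnHIF1a hearts. Of the 210 probe sets, 128 rose in WT without passing the test in dnHIF1a, 46 rose in both, 23 fell in dnHIF1a only, 11 rose in WT and fell in dnHIF1a, and 2 fell in both. Of the 137 with a higher interaction, 72 fell in WT without passing the test in dnHIF1a, 42 rose in dnHIF1a only, 17 fell in WT and rose in dnHIF1a, 5 moved in the same direction in both, and 1 passed neither test. Whether or not they passed a test, the responses of the lines had opposite signs for 100 (47.6%) of the lower probe sets. The same held for 101 (73.7%) of the higher ones. These counts describe where the difference lay and use the same arrays as the interaction.

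Probe sets called in the interaction differed between the lines about as often before amputation as after it. Of the 210 lower probe sets, 122 were already higher in unamputated dnHIF1a than in unamputated WT hearts (5.82% of all probe sets), and 114 were lower in amputated dnHIF1a than in amputated WT hearts (6.75% of all). For 85 of them the lines differed by the test in unamputated hearts alone, for 82 in amputated hearts alone, and for 30 in both states with opposite signs. Of the 137 higher probe sets, 75 were lower in unamputated dnHIF1a hearts (5.56% of all) and 70 were higher in amputated dnHIF1a hearts (6.15% of all). For 55 of these higher probe sets the lines differed by the test in unamputated hearts alone, and for 57 in amputated hearts alone. Neither state thus held most of the difference. Since the choice by interaction raises these counts, the shares of all probe sets are no test of them.

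The response was also smaller in dnHIF1a hearts for probe sets chosen on the average of the lines' responses, a contrast at right angles to the interaction. The average response was called higher for 1955 probe sets (12.6%), of which 1341 (68.6%) rose less in dnHIF1a than in WT hearts, with median responses of 0.33 and 0.48. It was called lower for 2114 (13.6%), of which 1462 (69.2%) fell less in dnHIF1a, with medians of -0.22 and -0.32. The difference itself passed the test for 147 of the first set toward a smaller and 27 toward a larger response, and for 46 and 13 of the second set. Among the 201 with an average rise of at least 1 unit, 84.1% rose less in dnHIF1a hearts, with medians of 1.11 and 1.67. Among the 20 with an average fall of at least 1 unit, 70% fell less in dnHIF1a hearts, with medians of -1.20 and -1.44. A smaller fall is an interaction above 0, which 56.4% of all genes had, and a smaller rise is one below 0. The shares of rises and of falls thus stand beside different shares of all genes.

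**Figure D1:**
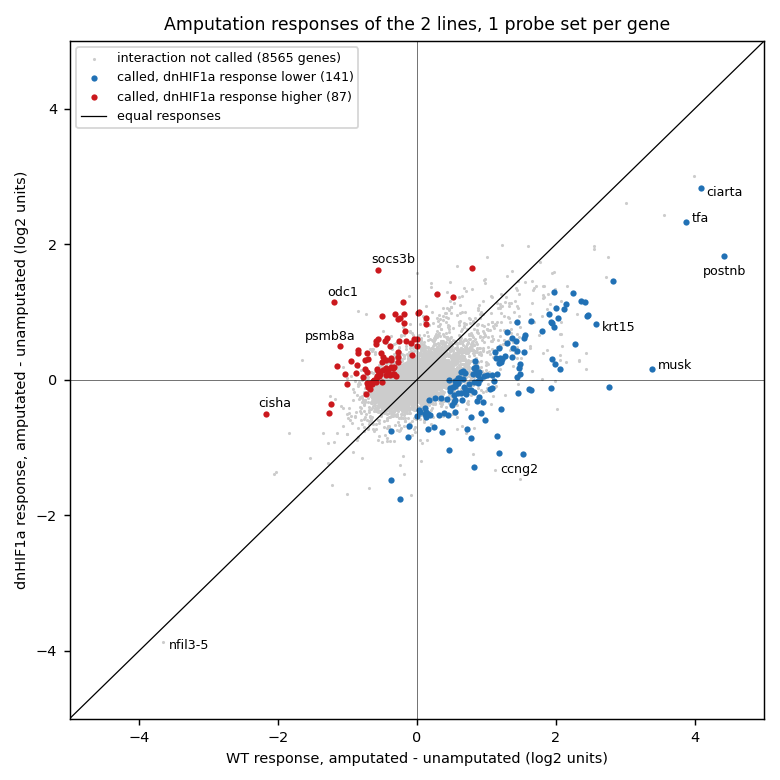
Each point is 1 of 8793 genes, with its change from unamputated to amputated hearts in WT on the horizontal axis and in dnHIF1a on the vertical axis, both in log2 units (means of 3 arrays a group). The 141 blue genes, called with a lower response in dnHIF1a, lie under the line of equal responses, mostly to the right of 0, and the 87 red genes, called with a higher response, lie above it, mostly to the left.

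Over genes, 228 of 8793 (2.59%) were called, 141 (1.6%) lower and 87 (0.989%) higher. The median interaction of all genes was 0.03, and 56.4% of genes had a value above 0. The 141 lower genes had a median response of 0.89 in WT and -0.02 in dnHIF1a hearts, and the 87 higher genes of -0.50 and 0.27. The 3 arrays a group limit the precision: without unamputated WT 3 the count of probe sets was 590, and it was 175 without amputated WT 1, 228 without amputated WT 3, 194 and 161 without unamputated dnHIF1a 1 and 2, and 149 and 162 without amputated dnHIF1a 1 and 2. Without any single array, 75 of the 228 genes passed the test every time.

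Erythrocyte markers moved with amputation in WT hearts. The 35 measured erythrocyte markers (globins, haem synthesis and membrane proteins) had a median response of 0.58 in WT, where 19 rose and 2 fell, and of 0.02 in dnHIF1a hearts, where none rose and 1 fell. Of all genes, 11.7% rose and 14.5% fell in WT, and 5.83% rose and 5.13% fell in dnHIF1a hearts. Their mean level was 7.26 to 7.52 in unamputated WT, 7.77 to 8.36 in amputated WT, 7.42 to 7.78 in unamputated dnHIF1a and 7.38 to 7.99 in amputated dnHIF1a arrays. Amputated WT arrays lay above the unamputated arrays of their line, the dnHIF1a groups overlapped each other, and the lowest amputated WT array lay within the range of both. The median interaction was -0.50, with 29 of the 35 below 0, while 56.4% of all genes were above 0. But 1 member, cpox, was called, and it was called higher, against 0.989% of all genes. Without amputated WT 2, the array of the lowest erythrocyte level in its group, 8 members were called lower and none higher.

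With the mean level of these markers as a covariate, 21 probe sets were called, 6 higher and 15 lower. The 347 probe sets all had the same sign with it, their median absolute difference was 0.78 in place of 0.85, and their median standard error 0.20 in place of 0.16. Among the 228 genes, 14 passed with the covariate. They were aebp1b, anxa1a, fbxo32, krt15, mmp2, tp53inp1, psmb8a, psmb9a, psmb12 and psmb13a of the genes described below, and fhl1b, mzt2b, nt5e and pcmt, which are named for this alone after their values were seen. The part of red blood cells in the other calls was not tested further, and in whole hearts more cells of a type and more RNA per cell cannot be told apart.

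Matrix genes, of the kind laid down in a wound, were called in 1 direction. Of 39 measured extracellular matrix genes, 7 were called, all lower, and of 28 matrix enzymes and collagen-processing genes, 4 were called, all lower, against 1.6% of all genes. The matrix list had median responses of 0.46 in WT and 0.31 in dnHIF1a hearts, and the enzymes of 0.81 and 0.58. Both lists rose in both lines by count. In WT 22 of the 39 matrix genes rose and in dnHIF1a 16, and 18 and 17 of the 28 enzymes. Of all genes, 11.7% rose in WT and 5.83% in dnHIF1a hearts. An interaction above 0 was found for 10 of the 39 matrix genes, against 56.4% of all genes.

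Periostin (postnb), a matrix protein made by activated fibroblasts and the epicardium, had the largest of these differences. It read 7.10, 7.46 and 6.45 in unamputated WT, 11.31, 11.25 and 11.71 in amputated WT, 8.85, 9.27 and 8.62 in unamputated dnHIF1a and 10.54, 10.91 and 10.76 in amputated dnHIF1a hearts. No 2 groups overlapped: the unamputated dnHIF1a arrays lay above the unamputated WT arrays, and the amputated dnHIF1a arrays below the amputated WT arrays. It rose 21.4-fold in WT and 3.54-fold in dnHIF1a hearts, an interaction of -2.60 ± 0.33 (SE, adjusted p = 0.00342). The line difference was 1.91 ± 0.23 in unamputated hearts (adjusted p = 0.000191) and -0.69 ± 0.23 in amputated hearts (adjusted p = 0.0706). Its second probe set gave -2.06 (adjusted p = 0.0101).

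The fibrillar collagens col1a1a, col1a2 and col5a2a, all called in the interaction, followed the same order. Collagen type I alpha 1 (col1a1a) read 9.38, 8.95 and 8.97 in unamputated WT, 11.52, 11.33 and 11.70 in amputated WT, 10.12, 10.14 and 9.94 in unamputated dnHIF1a and 11.17, 11.24 and 11.23 in amputated dnHIF1a hearts. Its 4 groups did not overlap, and the interaction was -1.27 ± 0.17 (adjusted p = 0.00433). Its partner chain col1a2 read 8.42, 8.27 and 7.83, then 10.90, 10.90 and 11.19 in the WT groups, and 9.16, 9.38 and 9.01, then 10.62, 10.60 and 10.71 in the dnHIF1a groups. These groups did not overlap either, and the interaction was -1.36 ± 0.20 (adjusted p = 0.00779). The second probe sets gave -1.06 (adjusted p = 0.0235) for col1a1a and -1.63 (adjusted p = 0.00483) for col1a2. For col5a2a, a type V collagen chain that sits in type I fibrils, the response was 2.14 in WT and 1.12 in dnHIF1a hearts (interaction -1.02 ± 0.13, adjusted p = 0.00342). A second probe set of col5a2a, dim at 3.51 to 4.46, gave 0.01.

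The other called matrix genes, named after their values were seen, were sparc (-1.10), a collagen-binding glycoprotein, col6a3 (-0.78), a type VI collagen chain, and thbs4b (-1.64), a thrombospondin of tendon and muscle matrix. Thrombospondin differed from col1a1a, col1a2 and col5a2a in where the lines parted. It read 4.76, 5.16 and 5.25 in unamputated WT, 6.89, 7.05 and 7.06 in amputated WT, 4.86, 4.78 and 4.81 in unamputated dnHIF1a and 5.34, 4.74 and 5.29 in amputated dnHIF1a hearts. Only the amputated WT arrays stood apart, with a response of 1.94 in WT (adjusted p = 3.99e-06) and 0.31 in dnHIF1a hearts (adjusted p = 0.262). The call of col6a3 was lost without any of 8 arrays, that is all but unamputated WT 2 and 3, unamputated dnHIF1a 3 and amputated dnHIF1a 3, with an adjusted p of up to 0.0908. Those of the other 6 matrix genes held without any single array.

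**Figure D2:**
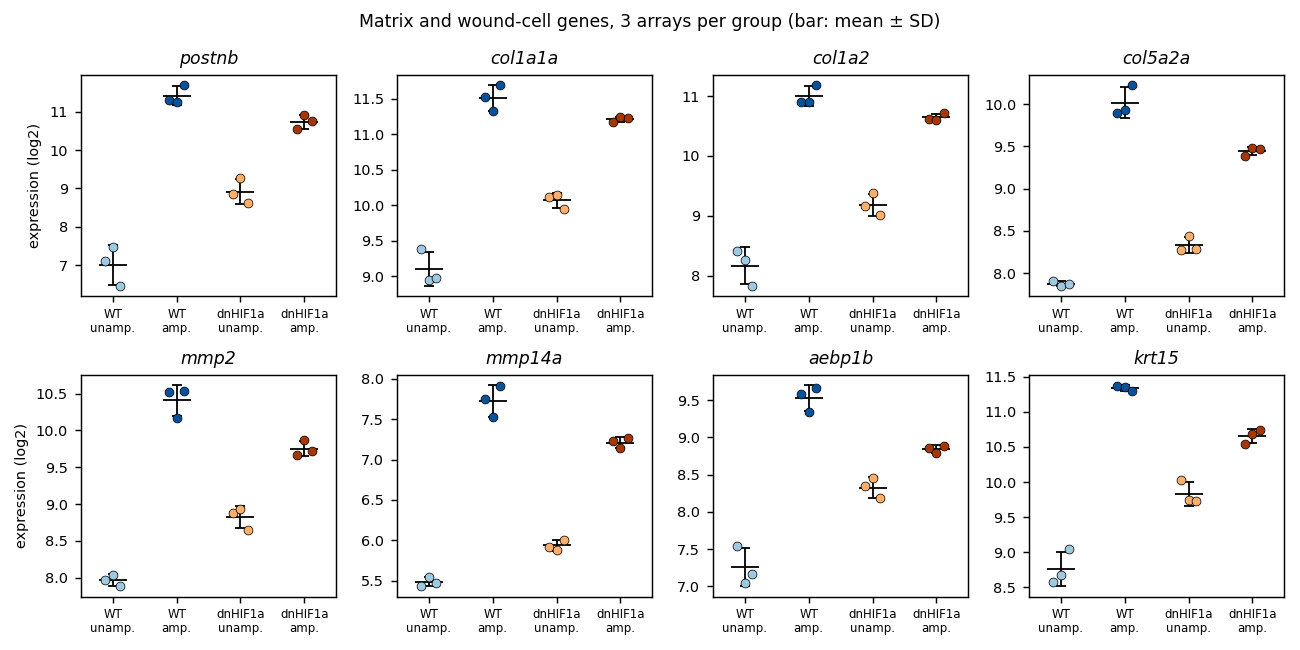
Each panel is 1 gene, with log2 expression on the vertical axis and the 3 arrays of each group as points; bars are the mean ± SD. Unamputated WT hearts are lowest and amputated WT hearts highest for all 8 genes, and both dnHIF1a groups lie between them.

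The called enzymes cut or fold matrix proteins. Gelatinase A (mmp2) read 7.97, 8.04 and 7.88 in unamputated WT, 10.52, 10.17 and 10.54 in amputated WT, 8.88, 8.93 and 8.65 in unamputated dnHIF1a and 9.67, 9.87 and 9.72 in amputated dnHIF1a hearts. The groups did not overlap, the rise was 5.45-fold in WT and 1.91-fold in dnHIF1a hearts, and the interaction was -1.51 ± 0.15 (adjusted p = 0.00101). A second probe set gave -1.55 (adjusted p = 0.00219). Both copies of the membrane enzyme that activates it were called as well: mmp14a rose by 2.24 in WT and 1.27 in dnHIF1a hearts (interaction -0.97 ± 0.13, adjusted p = 0.00433), and mmp14b gave -0.94 (adjusted p = 0.00985). The fourth, fkbp10b, a collagen-folding prolyl isomerase, gave -0.78 (adjusted p = 0.0447). That call was lost without any of 10 arrays, all but amputated WT 2 and unamputated WT 3, with an adjusted p of up to 0.111. Without amputated WT 2, 7 of the 28 enzymes were called in place of 4.

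Aebp1b, a secreted collagen-binding protein related to carboxypeptidases, belonged to no list and was among the 12 largest lower genes. It read 7.54, 7.05 and 7.17 in unamputated WT, 9.59, 9.34 and 9.67 in amputated WT, 8.35, 8.45 and 8.18 in unamputated dnHIF1a and 8.86, 8.79 and 8.89 in amputated dnHIF1a hearts. Its groups did not overlap (interaction -1.76 ± 0.18, adjusted p = 0.00101). Fibronectin (fn1a), the early wound matrix, did not pass: it rose by 3.99 in WT and 3.01 in dnHIF1a hearts, with an interaction of -0.99 ± 0.36 (adjusted p = 0.179), and of -0.25 with the erythrocyte covariate. Other, dimmer probe sets of fn1a gave interactions of -0.14 and 0.09, neither called. In WT hearts the former rose by 0.32 and the latter fell by 0.21.

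Markers of the epicardium and of fibroblasts, the cells that make this matrix, had 6 of 20 members called, all lower, against 1.6% of all genes, and a median interaction of -0.61. Their median response was 0.92 in WT and 0.56 in dnHIF1a hearts, and 15 and 11 of the 20 rose (11.7% and 5.83% of all genes). The mean level was 8.77 to 9.14 in unamputated WT, 10.05 to 10.35 in amputated WT, 9.34 to 9.41 in unamputated dnHIF1a and 9.98 to 10.21 in amputated dnHIF1a arrays. Unamputated dnHIF1a arrays thus lay above all unamputated WT arrays, and the amputated groups overlapped. Besides postnb and col1a2, which the matrix list also holds, the called members were vimentin (vim, -0.86), caveolin 1 (cav1, -0.73), transglutaminase 2 (tgm2b, -1.19) and the keratin krt94 (-0.72), named after their values were seen. The call of cav1 was lost without any array but unamputated WT 1 (adjusted p up to 0.119), and that of tgm2b without amputated WT 1, unamputated dnHIF1a 1 or amputated dnHIF1a 1 or 2 (up to 0.0648).

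Other epicardial genes were not called. The transcription factor tbx18 read 5.53 to 5.87, 5.79 to 5.99, 5.62 to 5.82 and 5.92 to 6.05 in the 4 groups in the order above, with an interaction of 0.06 ± 0.14 (adjusted p = 0.874). The retinoic acid synthesis enzyme aldh1a2, induced in epicardium and endocardium of injured zebrafish hearts, gave 0.50 ± 0.29 (adjusted p = 0.426). Their levels were not lower in amputated dnHIF1a hearts by the test (0.08 and 0.25, adjusted p = 0.679 and 0.505).

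Of 41 epithelial and keratin markers, 4 were called with a lower response, against 1.6% of all genes, with a median interaction of -0.23, and 7 were called without unamputated WT 1. In unamputated hearts 8 of the 41 were higher and 1 lower in dnHIF1a, against 6.3% and 6.24% of all genes. In amputated hearts 1 was higher and 6 lower, against 6.77% and 7.43% of all genes. Keratin 15 (krt15) read 8.57, 8.67 and 9.04 in unamputated WT, 11.37, 11.36 and 11.29 in amputated WT, 10.03, 9.74 and 9.73 in unamputated dnHIF1a and 10.54, 10.69 and 10.74 in amputated dnHIF1a hearts. The groups did not overlap, and the rise was 5.98-fold in WT and 1.77-fold in dnHIF1a hearts (interaction -1.76 ± 0.17, adjusted p = 0.000805). Annexin A1 (anxa1a), a membrane-binding protein that damps inflammation, rose by 1.93 in WT and 0.85 in dnHIF1a hearts (interaction -1.09 ± 0.13, adjusted p = 0.00236). The fourth member beside krt94 was icn (-0.99), a calcium-binding protein of the S100 family, whose call was lost without unamputated WT 2, amputated WT 1 or 3, unamputated dnHIF1a 1 or 2, or amputated dnHIF1a 1 or 2 (up to 0.0743), and whose value was -0.63 with the erythrocyte covariate.

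Of 25 liver markers, 3 were called, all lower, against 1.6% of all genes. The list's median interaction was 0.06, with 14 of 25 above 0, against 56.4% of all genes. Transferrin (tfa), the plasma iron carrier and a known HIF target in mammals, read 7.64, 7.19 and 7.30 in unamputated WT, 11.37, 10.99 and 11.37 in amputated WT, 8.81, 8.78 and 8.48 in unamputated dnHIF1a and 10.66, 11.26 and 11.14 in amputated dnHIF1a hearts. The unamputated lines did not overlap and the amputated lines did (interaction -1.54 ± 0.24, adjusted p = 0.00982). Retinol-binding protein rbp4 rose by 0.39 in WT and fell by 0.49 in dnHIF1a hearts (interaction -0.88 ± 0.15, adjusted p = 0.0117), from a level 1.14 higher in unamputated dnHIF1a hearts. The other called liver marker was cpn1 (-1.12), a plasma carboxypeptidase subunit. Midkine a (mdka), a growth factor induced in injured heart, had a response of 3.56 in WT and 2.43 in dnHIF1a hearts (interaction -1.13 ± 0.30, adjusted p = 0.0733), passed without amputated WT 2 (adjusted p = 0.00685), and gave -0.70 with the erythrocyte covariate (adjusted p = 0.464).

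Targets of FOXO factors and glucocorticoids, which include genes of growth arrest, atrophy and nutrient stress, were also called in 1 direction. Of 39 measured, 6 were called, all lower, against 1.6% of all genes, and the median interaction was -0.45, with 8 of 39 above 0, against 56.4% of all genes. In WT hearts 14 of the 39 rose and 4 fell (11.7% and 14.5% of all genes), with a median of 0.33. In dnHIF1a hearts 1 rose and 6 fell (5.83% and 5.13% of all genes), with a median of -0.16. The count of called members was 3 without amputated WT 1, unamputated dnHIF1a 2 or amputated dnHIF1a 1 or 2, and 10 without unamputated dnHIF1a 3.

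Cyclin G2 (ccng2), a FOXO target that opposes cell division, read 7.55, 7.53 and 8.32 in unamputated WT, 8.91, 8.81 and 9.20 in amputated WT, 9.40, 9.66 and 8.90 in unamputated dnHIF1a and 8.21, 8.43 and 8.07 in amputated dnHIF1a hearts. Within each line the states did not overlap, and they moved in opposite directions. It rose 2.26-fold in WT and fell 2.12-fold in dnHIF1a hearts (interaction -2.26 ± 0.31, adjusted p = 0.0051), and a second probe set gave -1.90 (adjusted p = 0.0115). Tp53inp1, on the p53 list and not on this one, is a stress-induced target of p53 that acts in autophagy. It read 6.41, 6.58 and 6.76, then 8.03, 7.96 and 8.12 in the WT groups, and 8.11, 8.01 and 7.82, then 7.83, 7.69 and 7.84 in the dnHIF1a groups. Unamputated WT arrays stood alone below the other 3 groups. Its interaction of -1.65 ± 0.14 had the smallest adjusted p of the named genes (0.000379).

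Arrdc2, a gene of the arrestin-domain family that belonged to no list, read 7.81, 7.56 and 8.17 in unamputated WT, 8.56, 8.57 and 8.88 in amputated WT, 8.60, 8.44 and 8.47 in unamputated dnHIF1a and 7.31, 6.80 and 7.54 in amputated dnHIF1a hearts. The amputated dnHIF1a arrays lay below all others (interaction -2.11 ± 0.26, adjusted p = 0.00335). A second, dim probe set at 4.34 to 4.71 gave -0.14. Atrogin-1 (fbxo32), a ubiquitin ligase subunit of muscle atrophy, rose by 0.78 in WT and fell by 0.55 in dnHIF1a hearts (interaction -1.34 ± 0.21, adjusted p = 0.00985). Glutamine synthetase (glula), a glucocorticoid target also listed with leukocyte markers, had 0.46 in WT (adjusted p = 0.0868) and fell by 1.04 in dnHIF1a hearts (interaction -1.50 ± 0.26, adjusted p = 0.0131).

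The other called FOXO and glucocorticoid targets were ddit4, dusp1 and cdkn1bb, and each lost its call without some single arrays. Ddit4, an inhibitor of the growth kinase mTORC1 that hypoxia and glucocorticoids induce, read 4.28, 4.22 and 5.19 in unamputated WT, 5.60, 6.11 and 6.57 in amputated WT, 6.24, 5.53 and 4.47 in unamputated dnHIF1a and 4.3, 3.76 and 4.90 in amputated dnHIF1a hearts. The WT states did not overlap and the dnHIF1a states did, with unamputated dnHIF1a spread over more than 1 unit. Its interaction was -2.62 ± 0.60 (adjusted p = 0.0421), lost without any array but unamputated WT 3, unamputated dnHIF1a 3 or amputated dnHIF1a 3 (up to 0.11). The phosphatase gene dusp1 (-1.41) and the p27 inhibitor gene cdkn1bb (-0.94), named after their values were seen, were lost without any of 10 and 6 arrays. For dusp1 the exceptions were unamputated WT 3 and unamputated dnHIF1a 3 (up to 0.119). For cdkn1bb the arrays were amputated WT 1 and 3, unamputated dnHIF1a 1 and 2 and amputated dnHIF1a 1 and 2 (up to 0.0836).

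**Figure D3:**
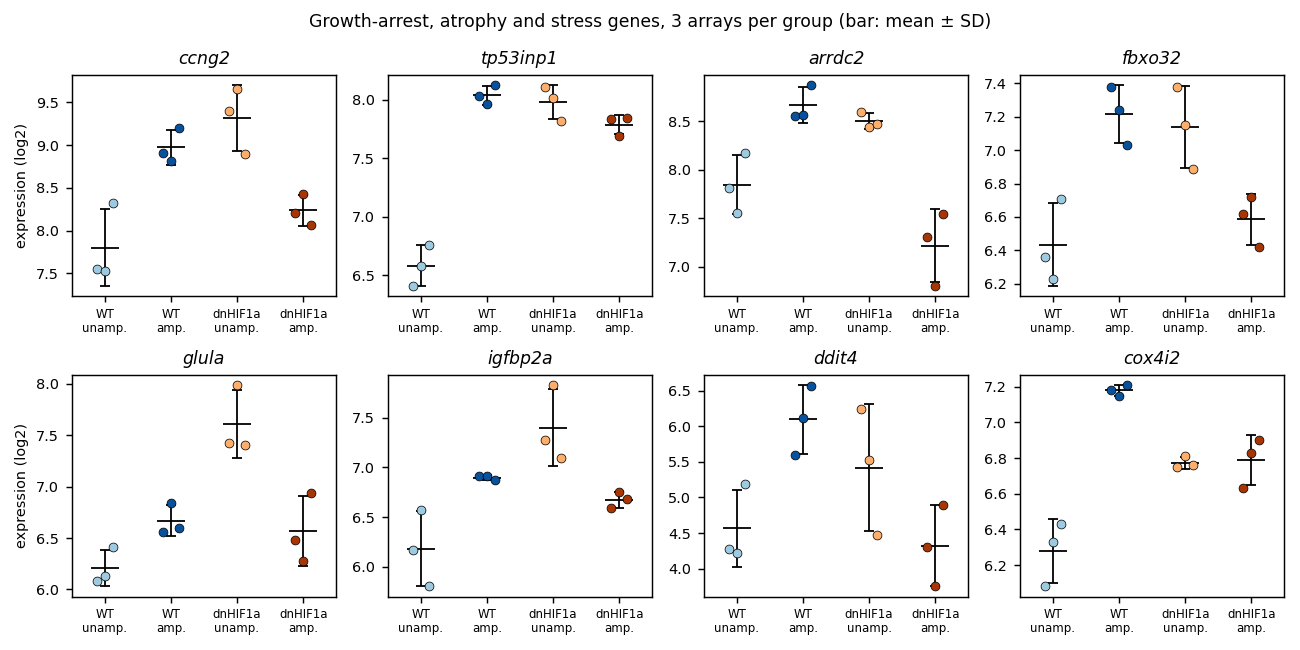
Each panel is 1 gene, with log2 expression on the vertical axis and the 3 arrays of each group as points; bars are the mean ± SD. WT means go up with amputation in all 8 panels, while dnHIF1a means go down in all but cox4i2, whose dnHIF1a groups are level (a difference of 0.01).

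Igfbp2a, a binding protein that holds insulin-like growth factors, rose by 0.71 in WT and fell by 0.73 in dnHIF1a hearts (interaction -1.44 ± 0.26, adjusted p = 0.018). The call was lost without amputated dnHIF1a 1 (adjusted p = 0.0514). The MAP kinase phosphatase dusp4 rose by 1.01 in WT against 0.07 in dnHIF1a hearts (interaction -0.94 ± 0.18, adjusted p = 0.0183), lost without unamputated dnHIF1a 2 or amputated dnHIF1a 1 (up to 0.0533). The injury-induced factor klf6a gave -0.79 ± 0.16 (adjusted p = 0.0247), lost without unamputated WT 2, amputated WT 1 or 3, unamputated dnHIF1a 1 or 2, or amputated dnHIF1a 2 or 3 (up to 0.0673). Of 51 immediate-early and AP-1 genes, 3 were called lower (dusp1, klf6a and dusp4) and 1 higher, against 1.6% and 0.989% of all genes. The list's median interaction was -0.24. The lower count ranged from 0 without unamputated dnHIF1a 2 to 7 without unamputated dnHIF1a 3. It was 5 without unamputated WT 3, and 1 without unamputated WT 2, amputated WT 1 or 3, unamputated dnHIF1a 1 or any amputated dnHIF1a array.

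The p53 and apoptosis list moved both ways. Of its 40 genes, 3 were called lower (ccng2, tp53inp1 and cdkn1bb) and 2 higher, against 1.6% and 0.989% of all genes. Phlda3, a p53 target that blocks the kinase AKT, read 7.69, 7.19 and 7.19 in unamputated WT, 6.92, 6.81 and 7.40 in amputated WT, 5.55, 5.69 and 5.96 in unamputated dnHIF1a and 6.72, 6.74 and 6.65 in amputated dnHIF1a hearts. The unamputated dnHIF1a arrays lay below all others (interaction 1.28 ± 0.23, adjusted p = 0.0177). Bcl2l10, of the BCL2 family of death regulators, fell by 1.01 in WT hearts, while the dnHIF1a difference was -0.07 (interaction 0.94 ± 0.20, adjusted p = 0.034). Its call was lost without any array but unamputated WT 1 or 3 (up to 0.0898), so that the higher count was 1. The lower count was 6 without unamputated WT 3 or unamputated dnHIF1a 3.

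Of 41 known HIF targets outside glycolysis, 6 (14.6%) were called, all lower, against 1.6% of all genes. The list's median interaction was 0.08, with 20 of 41 below 0, and the median response was 0.07 in WT and 0.09 in dnHIF1a hearts. The cytochrome oxidase subunit cox4i2, which HIF1 induces in mammals, read 6.08, 6.33 and 6.43 in unamputated WT, 7.18, 7.15 and 7.21 in amputated WT, 6.75, 6.81 and 6.76 in unamputated dnHIF1a and 6.63, 6.83 and 6.90 in amputated dnHIF1a hearts. The WT states did not overlap, the dnHIF1a states did, and both lay between the WT states (interaction -0.89 ± 0.13, adjusted p = 0.00819). Stanniocalcin stc2a, a secreted calcium and phosphate regulator, differed in that its WT response was -0.37 (adjusted p = 0.0744), while in dnHIF1a hearts it fell by 1.48 (interaction -1.11, adjusted p = 0.0173). The mitophagy receptor gene bnip3lb gave -0.65 (adjusted p = 0.0235), and was lost without amputated WT 1 or amputated dnHIF1a 1 or 2 (up to 0.0648). The other called targets were tfa, dusp1 and ddit4. The list held 3 called members without amputated WT 1, amputated dnHIF1a 1 or amputated dnHIF1a 2.

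Other HIF targets were not called, among them vegfaa and egln3. Vegfaa, the main vessel growth factor, read 7.71, 7.48 and 7.96 in unamputated WT, 7.58, 7.89 and 7.50 in amputated WT, 7.84, 7.85 and 7.60 in unamputated dnHIF1a and 8.64, 8.70 and 7.92 in amputated dnHIF1a hearts. Its highest values were thus in amputated dnHIF1a arrays 1 and 2. Over all 3 arrays a group, amputated dnHIF1a hearts were above amputated WT hearts by 0.76 (adjusted p = 0.0199). The response was 0.66 in dnHIF1a (adjusted p = 0.0476) and -0.06 in WT hearts (adjusted p = 0.847). The interaction was 0.72 ± 0.27 (adjusted p = 0.19), passing without amputated dnHIF1a 3 (0.0341), and 0.13 with the erythrocyte covariate. The prolyl hydroxylase egln3, which marks HIF for degradation and is itself a HIF target, gave 0.70 ± 0.32 (adjusted p = 0.28) and passed without unamputated WT 2 (0.0218).

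Of 20 HIF subunits and regulators none was called by limma, against 2.59% of all genes. The subunit gene epas1a, of HIF2a, gave -0.23 ± 0.12 and its copy epas1b -0.10 ± 0.15 (adjusted p = 0.364 and 0.794). The HIF family member hif1al gave -0.72 ± 0.20 (adjusted p = 0.0897) and passed without unamputated WT 3 or unamputated dnHIF1a 3 (lowest 0.0432). Its relative hif1al2 gave -1.69 ± 0.51 (adjusted p = 0.108), -0.53 with the erythrocyte covariate, and passed without amputated WT 2 (0.019).

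Of 48 glycolysis and glycogen genes, 4 were called, all higher in their dnHIF1a response, against 0.989% of all genes. An interaction above 0 was found for 33 of the 48, against 56.4% of all genes, with a list median of 0.11. Aldolase C (aldocb) read 10.83, 10.52 and 10.87 in unamputated WT, 10.54, 10.57 and 10.56 in amputated WT, 9.08, 8.88 and 9.01 in unamputated dnHIF1a and 9.92, 9.84 and 9.70 in amputated dnHIF1a hearts. The WT states overlapped in range, while the dnHIF1a states did not and both lay below WT. Starting 3.36-fold lower than in WT, it rose 1.78-fold with amputation (interaction 1.01 ± 0.14, adjusted p = 0.00462), and a second probe set gave 0.82 (adjusted p = 0.0235).

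Lactate dehydrogenase B (ldhbb), named after its values were seen, had the same form. It read 6.87, 6.73 and 6.48, then 6.36, 6.70 and 6.44 in the WT groups, and 5.12, 5.09 and 4.65, then 6.17, 5.71 and 5.87 in the dnHIF1a groups. The unamputated dnHIF1a arrays lay lowest (interaction 1.16, adjusted p = 0.0194), and the call was lost without amputated WT 1 or amputated dnHIF1a 1 (up to 0.0553). The muscle phosphoglycerate mutase pgam2 fell by 0.57 in WT hearts, while the dnHIF1a difference was 0.04 (interaction 0.62 ± 0.11, adjusted p = 0.0165). Its relative pgam1a gave 0.69 (adjusted p = 0.0297), lost without unamputated WT 1, unamputated dnHIF1a 1 or 2, or amputated dnHIF1a 1 or 2 (up to 0.0855). Without amputated dnHIF1a 1 the list held 2 called genes.

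Mitochondrial respiration showed a small difference in many genes. Of 93 genes of oxidative phosphorylation, 85 had an interaction above 0, against 56.4% of all genes, with a median of 0.14. But 1 of the 93 was called higher and 1, cox4i2, lower, against 0.989% and 1.6% of all genes. In WT hearts 32 of the 93 fell and 3 rose (14.5% and 11.7% of all genes). In dnHIF1a hearts 4 fell and 2 rose (5.13% and 5.83% of all genes). The called gene uqcrh, the hinge subunit of complex III, read 12.10, 12.16 and 12.11 in unamputated WT, 11.81, 11.84 and 11.80 in amputated WT, 11.92, 11.93 and 11.96 in unamputated dnHIF1a and 12.03, 12.01 and 11.94 in amputated dnHIF1a hearts. The WT states were well apart and the dnHIF1a states overlapped (interaction 0.36 ± 0.08, adjusted p = 0.0432). That call was lost without any array but unamputated WT 3 (up to 0.106). No gene of the tricarboxylic acid cycle (26) or of fatty acid oxidation (35) was called, against 2.59% of all genes. Their medians were 0.06 and 0.10.

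Heart muscle structure genes had 3 of 37 called, all higher, against 0.989% of all genes. The list's median interaction was 0.19, with 27 of 37 above 0, against 56.4% of all genes. Ldb3a, a protein of the sarcomere's Z-disc, read 10.87, 10.98 and 10.90 in unamputated WT, 10.32, 10.16 and 10.29 in amputated WT, 10.92, 11.02 and 10.88 in unamputated dnHIF1a and 10.94, 10.88 and 10.79 in amputated dnHIF1a hearts. Only the amputated WT arrays stood apart, below the rest (interaction 0.59 ± 0.10, adjusted p = 0.0153). Desmin (desma), the filament that ties Z-discs together and also a smooth muscle marker, fell by 0.37 in WT hearts, while the dnHIF1a difference was 0.18 (interaction 0.56 ± 0.12, adjusted p = 0.0297). It was lost without amputated WT 1 or 2 or any dnHIF1a array (up to 0.0815). The muscle transcription factor mef2aa (0.60) was lost without any array but unamputated WT 1 or amputated dnHIF1a 3 (up to 0.0974). The list held 1 called gene without amputated WT 1 or 2, unamputated dnHIF1a 1 or 2, or amputated dnHIF1a 1 or 2.

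Myl7, which read near the top of the arrays' scale, where a change may not show, gave 0.02 ± 0.09 (adjusted p = 0.935), and the cardiac transcription factor gata4 gave 0.03 ± 0.11 (adjusted p = 0.924). None of 15 calcium handling and ion channel genes was called by limma, against 2.59% of all genes. That list's median was 0.12, with 11 of 15 above 0, against 56.4% of all genes. Among 13 smooth muscle and mural markers, desma alone was called, higher, against 0.989% of all genes, and 9 of 13 were below 0 (median -0.17). Skeletal muscle markers had 1 of 32 called, lower, against 1.6% of all genes, and a median of 0.01.

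That skeletal marker was musk, the receptor kinase that organises the nerve-muscle synapse, and it had the largest interaction of any named gene. It read 5.12, 3.63 and 4.27 in unamputated WT, 7.84, 7.22 and 8.11 in amputated WT, 8.14, 7.76 and 9.66 in unamputated dnHIF1a and 8.54, 8.72 and 8.77 in amputated dnHIF1a hearts. Unamputated WT arrays lay far below the other 9 and were dim, and the dnHIF1a states overlapped. The WT response was 3.38, the dnHIF1a response 0.16 (adjusted p = 0.886), and the interaction -3.23 ± 0.62 (adjusted p = 0.0221). It was lost without amputated WT 1 or 3 or amputated dnHIF1a 1 or 2 (up to 0.0611).

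Of 50 heat shock and folding genes, 6 were called, all higher in their dnHIF1a response, against 0.989% of all genes. The list's median interaction was 0.20, with 40 of 50 above 0, against 56.4% of all genes. In WT hearts 19 of the 50 fell and 4 rose (14.5% and 11.7% of all genes). In dnHIF1a hearts 1 fell and 7 rose (5.13% and 5.83% of all genes). The mitochondrial chaperonin pair hspe1 and hspd1 is an example. Hspe1 read 11.72, 11.45 and 11.48 in unamputated WT, 10.95, 10.86 and 10.93 in amputated WT, 11.18, 11.09 and 11.27 in unamputated dnHIF1a and 11.20, 11.24 and 11.03 in amputated dnHIF1a hearts. The amputated WT arrays lay below all others (interaction 0.61 ± 0.13, adjusted p = 0.0263), and hspd1, named after its values were seen, gave 0.97 (adjusted p = 0.0391).

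The cytosolic chaperone hspa4a fell by 0.60 in WT hearts, while dnHIF1a hearts were higher by 0.53 after amputation (adjusted p = 0.0615), an interaction of 1.12 ± 0.23 (adjusted p = 0.0266). The mitochondrial hspa9 (0.59) and the cochaperones dnajb1b (0.88) and bag2 (1.03) were the others called, named after their values were seen. Hspe1 was lost without amputated WT 1 or 3, unamputated dnHIF1a 1 or 2, or amputated dnHIF1a 1 or 2 (up to 0.0753), and hspa4a without the same arrays other than amputated WT 1 (up to 0.0774). The 4 others were each lost without at least 5 arrays, with adjusted p values of up to 0.105 for hspd1. The list held none called without unamputated dnHIF1a 1, unamputated dnHIF1a 2 or amputated dnHIF1a 2, 1 without amputated WT 3, and 2 without amputated WT 1 or amputated dnHIF1a 1.

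Ribosome biogenesis genes had the highest median interaction of the 40 lists, 0.39, with 42 of 48 above 0, against 56.4% of all genes. Their median response was -0.51 in WT, where 29 fell and none rose (14.5% and 11.7% of all genes). It was -0.13 in dnHIF1a hearts, where 4 fell and 2 rose (5.13% and 5.83% of all genes). The unamputated WT arrays were spread, with mean levels of 6.84 to 7.36, against 6.56 to 6.65 in amputated WT, 6.79 to 6.92 in unamputated dnHIF1a and 6.69 to 6.86 in amputated dnHIF1a arrays. The dnHIF1a states overlapped and the WT states did not. By the test 2 members of the list were called, odc1 and pprc1, both higher, against 0.989% of all genes. They are the polyamine enzyme and the mitochondrial coactivator described below, and no other member of the list was called. Without unamputated WT 3 there were 9, and without amputated WT 1, amputated dnHIF1a 1 or amputated dnHIF1a 2 there was 1.

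Odc1, the rate-limiting enzyme of polyamine synthesis and a growth-linked gene, had the largest positive interaction. It read 7.44, 7.15 and 6.18 in unamputated WT, 5.60, 5.67 and 5.91 in amputated WT, 5.97, 6.23 and 5.77 in unamputated dnHIF1a and 7.55, 6.82 and 7.02 in amputated dnHIF1a hearts. Within each line the states did not overlap, and the directions were opposite: it fell 2.29-fold in WT and rose 2.2-fold in dnHIF1a hearts (interaction 2.34 ± 0.38, adjusted p = 0.0114). Pprc1, a coactivator of mitochondrial gene expression named after its values were seen, read 5.24, 4.91 and 4.23, then 4.19, 4.29 and 4.37 in the WT groups, and 4.17, 4.43 and 4.08, then 5.25, 5.24 and 5.01 in the dnHIF1a groups. It was dim throughout, the WT states overlapped, and the dnHIF1a states did not (interaction 1.45, adjusted p = 0.0198). Its call was lost without amputated WT 1 or amputated dnHIF1a 1 or 2 (up to 0.0571).

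None of 74 cytosolic ribosomal protein genes was called (median -0.01), against 2.59% of all genes. Of 86 translation factors and tRNA synthetases, with a median of 0.05, 1 was called higher, against 0.989% of all genes. That was wars1, the tryptophanyl-tRNA synthetase that interferon also induces, which fell by 0.42 in WT hearts, while the dnHIF1a difference was 0.13 (interaction 0.55 ± 0.12, adjusted p = 0.04). The call was lost without any array but unamputated WT 3 or unamputated dnHIF1a 3 (up to 0.101), and without unamputated WT 3 the list held 6. None of 57 chaperones and secretion genes of the endoplasmic reticulum was called, against 2.59% of all genes. At that share lists of these sizes would hold few called genes.

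Constitutive proteasome genes shared a direction. All 37 measured genes of the constitutive proteasome had an interaction above 0, against 56.4% of all genes, with a median of 0.20. None was called, against 2.59% of all genes. In WT hearts 19 of the 37 fell and none rose (14.5% and 11.7% of all genes). In dnHIF1a hearts 2 of the 37 fell (5.13% of all genes). Their mean level was 8.94 to 9.04 in unamputated WT, 8.65 to 8.84 in amputated WT, 8.86 to 8.92 in unamputated dnHIF1a and 8.79 to 8.88 in amputated dnHIF1a arrays. The genes are not independent of each other, and the WT states did not overlap while the dnHIF1a states did.

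The immunoproteasome, the variant that cuts peptides for class I antigen presentation, held called members. Of 19 genes of the immunoproteasome and class I presentation, 4 were called, all higher, against 0.989% of all genes. All 4 were catalytic beta subunits. The list as a whole did not share a direction, with 12 of the 19 above 0 and 7 below (median 0.18). Of all genes, 56.4% were above 0. Psmb8a read 9.71, 9.91 and 9.98 in unamputated WT, 8.90, 8.53 and 8.84 in amputated WT, 7.79, 8.27 and 7.53 in unamputated dnHIF1a and 8.55, 8.06 and 8.45 in amputated dnHIF1a hearts. Unamputated WT arrays lay above all others and the dnHIF1a states overlapped. The gene was 4.01-fold lower in unamputated dnHIF1a than in unamputated WT hearts, and its interaction was 1.60 ± 0.25 (adjusted p = 0.00985).

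Psmb9a read 7.59, 7.82 and 7.74, then 6.76, 6.55 and 6.74 in the WT groups, and 6.28, 6.48 and 6.07, then 6.57, 6.15 and 6.36 in the dnHIF1a groups. Again unamputated WT arrays stood above all others (interaction 1.12 ± 0.17, adjusted p = 0.00985). The zebrafish subunit genes psmb13a and psmb12 gave 1.22 ± 0.21 and 1.35 ± 0.25 (adjusted p = 0.0153 and 0.0177), and psmb12 was lost without amputated dnHIF1a 1 (0.0509). With the erythrocyte covariate all 4 were called, with adjusted p values of 0.0214 for psmb8a, 0.0278 for psmb9a, 0.0374 for psmb12 and 0.00904 for psmb13a. The list as a whole started lower in dnHIF1a hearts, with 12 of 19 lower and 1 higher in the unamputated state. Of all genes, 6.24% were lower and 6.3% higher in unamputated dnHIF1a hearts, and 7.43% and 6.77% in amputated dnHIF1a hearts.

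**Figure D4:**
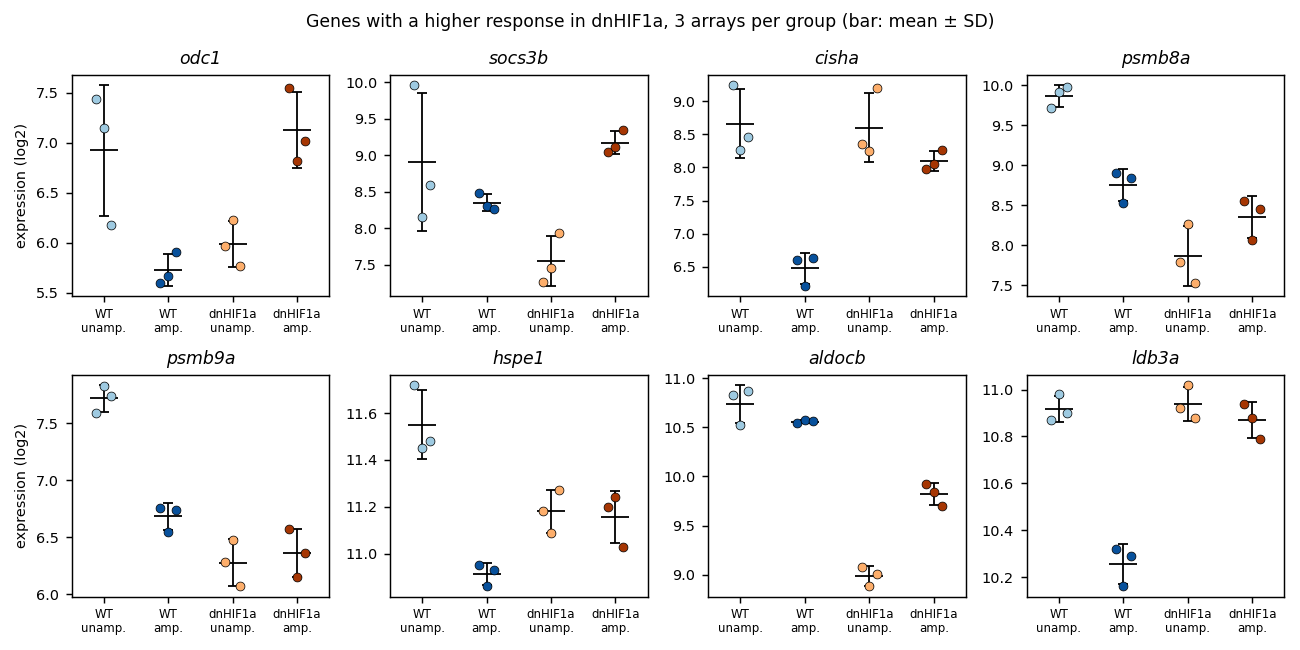
Each panel is 1 gene, with log2 expression on the vertical axis and the 3 arrays of each group as points; bars are the mean ± SD. WT means go down with amputation in all 8 panels; dnHIF1a means go up for odc1, socs3b, aldocb and the psmb genes, by 0.08 for psmb9a, and down for cisha, hspe1 (-0.02) and ldb3a (-0.07).

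Socs3b, which JAK and STAT signalling induces and which shuts it off, read 9.97, 8.16 and 8.60 in unamputated WT, 8.48, 8.30 and 8.27 in amputated WT, 7.27, 7.45 and 7.94 in unamputated dnHIF1a and 9.05, 9.12 and 9.35 in amputated dnHIF1a hearts. The WT states overlapped, with unamputated WT 1 far above, and the dnHIF1a states did not (interaction 2.18 ± 0.48, adjusted p = 0.0362), and the call held without unamputated WT 1. Its relative cisha read 9.25, 8.27 and 8.46, then 6.60, 6.21 and 6.63 in the WT groups, and 8.35, 8.25 and 9.20, then 7.97, 8.05 and 8.26 in the dnHIF1a groups. There the amputated WT arrays lay below all others (interaction 1.67 ± 0.37, adjusted p = 0.0377). The paralog socs3a, named after its values were seen, was not called, with responses of 0.26 in WT and -0.37 in dnHIF1a hearts (interaction -0.62). The calls of socs3b and cisha were lost without any amputated array or unamputated dnHIF1a 1 or 2 (up to 0.0903 and 0.096). Among the 18 interferon response genes these 2 were the called members, against 0.989% of all genes called higher. The list's median was -0.13.

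Leukocyte markers as a whole differed between the lines in level more than in response. Of 34 macrophage and pan-leukocyte markers, 21 rose with amputation in WT and 22 in dnHIF1a hearts, with medians of 0.63 and 0.84, and in unamputated hearts 20 were lower and 3 higher in dnHIF1a, with a median of -0.74. In amputated hearts 14 were lower and 1 higher in dnHIF1a, with a median of -0.47. Of all genes, 11.7% rose with amputation in WT and 5.83% in dnHIF1a hearts. Between the lines, 6.24% of all genes were lower and 6.3% higher in unamputated dnHIF1a hearts. In amputated dnHIF1a hearts these shares were 7.43% and 6.77%. The mean level of the markers was 7.37 to 7.49 in unamputated WT and 7.95 to 8.18 in amputated WT arrays. It was 6.74 to 6.93 in unamputated dnHIF1a and 7.43 to 7.67 in amputated dnHIF1a arrays. The interaction was called higher for grna and lower for glula, against 0.989% and 1.6% of all genes, and had a median of 0.17. The lower count was 3 without unamputated WT 1 and 2 without amputated WT 2 or amputated dnHIF1a 1, and the higher count 2 without unamputated WT 3 and 3 without amputated dnHIF1a 2.

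Progranulin a (grna), a growth factor of macrophages and lysosomes, read 6.84, 6.94 and 6.90 in unamputated WT, 7.50, 7.83 and 7.73 in amputated WT, 5.45, 5.26 and 5.38 in unamputated dnHIF1a and 7.08, 6.88 and 7.08 in amputated dnHIF1a hearts. Unamputated dnHIF1a arrays lay lowest and amputated WT arrays highest (interaction 0.86 ± 0.13, adjusted p = 0.00982). The myeloid transcription factor spi1b, also called PU.1, rose by 0.97 and 1.43 (interaction 0.45 ± 0.18, adjusted p = 0.224). A second probe set of spi1b rose by 1.35 in WT and 1.25 in dnHIF1a hearts (interaction -0.10, adjusted p = 0.808). None of 13 neutrophil, 7 lymphocyte or 7 thrombocyte markers was called, against 2.59% of all genes.

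Cpox, a haem synthesis enzyme and the called erythrocyte marker, read 8.73, 8.85 and 8.79 in unamputated WT, 8.24, 8.32 and 8.47 in amputated WT, 7.64, 7.58 and 7.66 in unamputated dnHIF1a and 7.72, 7.64 and 8.0 in amputated dnHIF1a hearts. Both dnHIF1a groups lay below both WT groups (interaction 0.61 ± 0.13, adjusted p = 0.0362). That call was lost without unamputated WT 2, amputated WT 1 or 2, any unamputated dnHIF1a array or amputated dnHIF1a 1 or 3 (up to 0.0868). Other haem synthesis genes, 11 of the 12 listed, were not called. The water channel aqp8a.1, the called member of 16 endothelium and endocardium markers (median 0.07), rose by 0.58 in WT hearts against 0.01 in dnHIF1a hearts (interaction -0.57 ± 0.13, adjusted p = 0.0431). It was lost without any array but unamputated WT 1 or 3 or amputated dnHIF1a 3 (up to 0.111).

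Clock genes, which depend on the hour a heart is taken, also changed with amputation in both lines. Of 23 clock repressors and D-box genes, 11 rose and 4 fell in WT hearts (11.7% and 14.5% of all genes). In dnHIF1a hearts 8 rose and 4 fell (5.83% and 5.13% of all genes). Ciarta, a circadian repressor, read 4.48, 4.59 and 4.86 in unamputated WT, 8.55, 8.80 and 8.83 in amputated WT, 5.07, 4.96 and 4.50 in unamputated dnHIF1a and 7.63, 7.75 and 7.63 in amputated dnHIF1a hearts. The unamputated lines overlapped and the amputated lines did not (interaction -1.26 ± 0.20, adjusted p = 0.0101). The bZIP repressor nfil3-5 fell by 3.66 in WT and 3.88 in dnHIF1a hearts (interaction -0.22 ± 0.44, adjusted p = 0.843). The light-induced clock gene per2 rose by 0.52 and 1.22 (interaction 0.69 ± 0.14, adjusted p = 0.0229), lost without amputated WT 1 or amputated dnHIF1a 1 (up to 0.0633), and a dim second probe set gave 0.18.

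Nfil3-6, a paralog of nfil3-5, rose by 1.62 in WT against -0.14 in dnHIF1a hearts (interaction -1.76 ± 0.39, adjusted p = 0.0362). Its call was lost without any array but unamputated WT 3 or unamputated dnHIF1a 3 (up to 0.0908), and a second probe set near the bottom of the scale gave -0.55. In all, 2 of the 23 were called lower and 1 higher, against 1.6% and 0.989% of all genes. The list's median responses were 0.33 in WT and 0.09 in dnHIF1a hearts. None of 8 clock activators was called, against 2.59% of all genes. The lower count was 1 without any array but unamputated WT 3 or unamputated dnHIF1a 3, and 4 without the latter, where the higher count was 2. The labels used here give no hour of sampling, so the part of sampling time in the amputation responses was not tested.

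Of 102 ligands, receptors and regulators known from heart regeneration, 3 were called lower and 1, socs3b, higher (3.92%, against 2.59% of all genes), with a median of 0.03. Fstl1b, a follistatin-like secreted protein whose mouse counterpart comes from epicardium, rose by 1.36 in WT against 0.33 in dnHIF1a hearts (interaction -1.03 ± 0.23, adjusted p = 0.0364). Its call was lost without unamputated WT 2, amputated WT 1 or 3, unamputated dnHIF1a 2 or 3 or any amputated dnHIF1a array (up to 0.0908). The kinase gene jak2a (-1.40), named after its values were seen, was lost without any array but amputated WT 2 (up to 0.119) and gave -0.54 with the erythrocyte covariate, and igfbp2a was the other. The lower count was 0 without amputated dnHIF1a 1, 5 without unamputated WT 3, and 1 without unamputated WT 2, amputated WT 1 or 3, unamputated dnHIF1a 2 or amputated dnHIF1a 2 or 3. The chaperone clu, induced in injured tissue, rose by 3.01 and 2.61 (interaction -0.40 ± 0.37, adjusted p = 0.638).

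None of 55 DNA replication genes and none of 56 mitosis genes was called by limma, against 2.59% of all genes, with median interactions of -0.02 and -0.05. At that share lists of this size would hold few called genes. Their mean levels on the arrays were 5.84 to 6.29 and 5.34 to 5.83, near the median of all values (5.56). The absence of calls thus does not show equal responses. The replication clamp pcna read 9.64, 10.13 and 9.24 in unamputated WT, 9.55, 9.35 and 10.39 in amputated WT, 9.34, 9.44 and 9.59 in unamputated dnHIF1a and 9.83, 9.53 and 9.44 in amputated dnHIF1a hearts. The 4 groups overlapped (interaction 0.05 ± 0.36, adjusted p = 0.961). The standard error of 0.36 belongs to the interaction, and each WT group was spread over about 1 unit. A difference of moderate size in pcna was thus not detectable with 3 arrays a group. Exocrine pancreas and gut markers (20) and gonad markers (21) had no called member either.

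**Figure D5:**
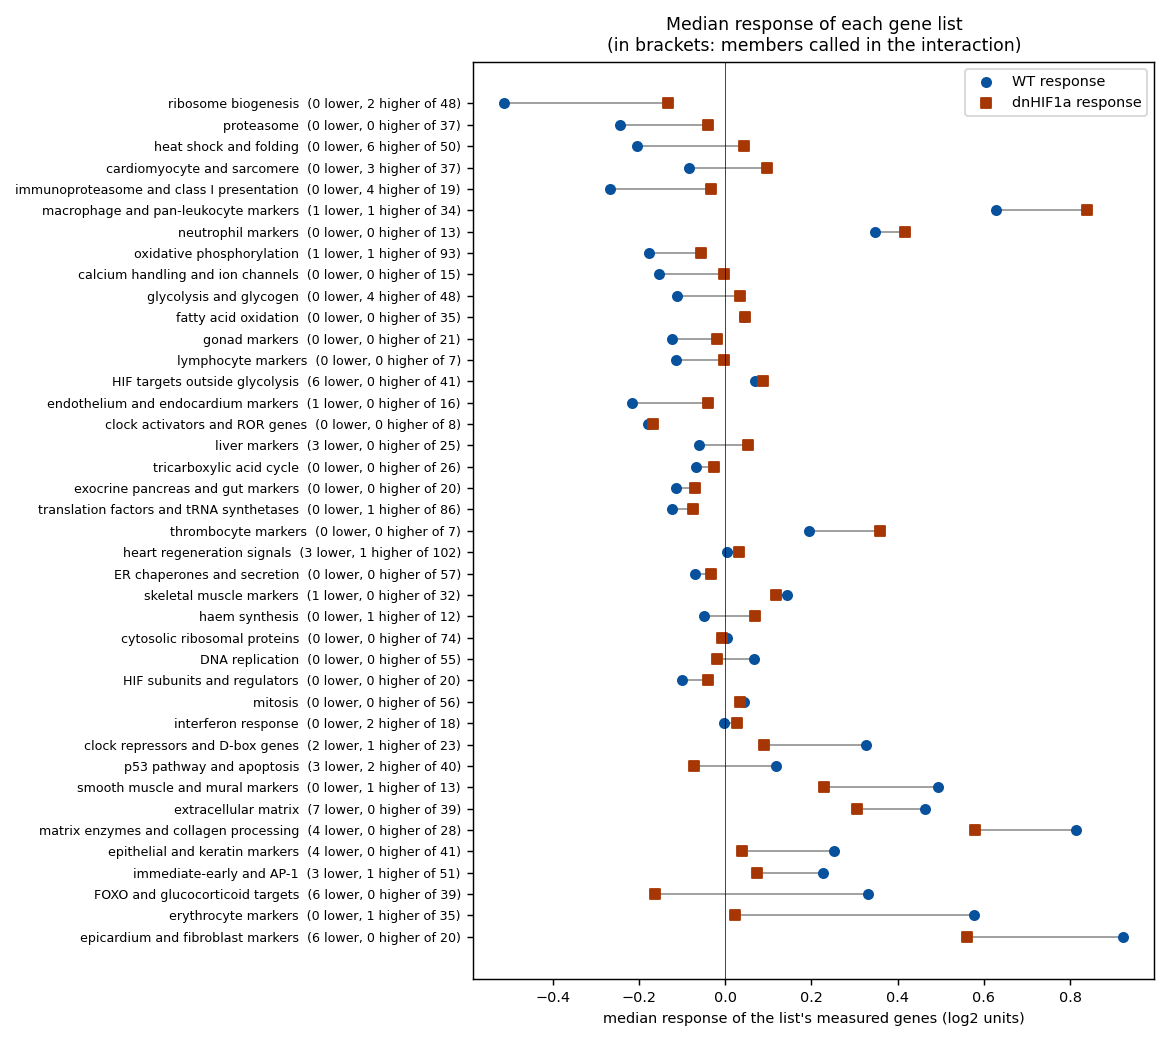
Each line is 1 of the 40 gene lists, ordered by median interaction, with the median response of its measured genes in log2 units for WT (circles) and dnHIF1a (squares); brackets give the number of members called lower and higher in the interaction. The epicardium, erythrocyte and FOXO lists at the bottom have the lowest median interactions (-0.61, -0.50 and -0.45). Ribosome biogenesis at the top has the highest (0.39).

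The remaining genes of large interaction belonged to no list. A lower response in dnHIF1a was called for ifi44f1, of an interferon-induced family, tppp3, a tubulin-binding protein, zdhhc2, a palmitoyltransferase, and nt5dc2. Ifi44f1 read 7.40, 7.03 and 6.87 in unamputated WT, 9.41, 8.27 and 9.41 in amputated WT, 7.44, 8.16 and 7.30 in unamputated dnHIF1a and 7.53, 6.96 and 8.06 in amputated dnHIF1a hearts. Amputated WT arrays stood above all others (interaction -2.05 ± 0.47, adjusted p = 0.0447), and with the erythrocyte covariate the value was -0.79. Its call was lost without unamputated WT 2 or 3, amputated WT 1 or 3, unamputated dnHIF1a 1 or 2, or amputated dnHIF1a 1 or 2 (up to 0.11).

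Tppp3 was dim in WT hearts, at 3.68 to 4.72 and 4.85 to 5.95, and read 7.15 to 7.72 in unamputated and 6.20 to 6.86 in amputated dnHIF1a hearts. All 4 groups were apart, and both dnHIF1a groups lay above both WT groups, by 3.14 in unamputated and 1.14 in amputated hearts (interaction -1.99 ± 0.42, adjusted p = 0.0297), with the call lost without unamputated WT 2, amputated WT 3, unamputated dnHIF1a 1 or 2, or amputated dnHIF1a 1 or 2 (up to 0.0855). Zdhhc2 rose by 2.05 in WT against 0.15 in dnHIF1a hearts (interaction -1.90 ± 0.39, adjusted p = 0.0252), lost without unamputated dnHIF1a 1 or 2 or amputated dnHIF1a 1 (up to 0.0746). Nt5dc2 rose by 1.64 against -0.16 (interaction -1.80 ± 0.33, adjusted p = 0.0183), lost without amputated dnHIF1a 2 (0.054).

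A higher response in dnHIF1a was called for rasal2, a brake on RAS signalling, filip1b, a filamin-interacting protein, ehbp1, a protein of membrane traffic, rtca, an RNA 3' end cyclase, and irx5a, a homeobox factor of the ventricle in mouse. Filip1b read 8.98, 9.06 and 9.32 in unamputated WT, 8.19, 8.11 and 8.52 in amputated WT, 8.78, 8.85 and 8.93 in unamputated dnHIF1a and 9.40, 9.29 and 9.17 in amputated dnHIF1a hearts. The states moved in opposite directions without overlap within a line (interaction 1.28 ± 0.16, adjusted p = 0.00382). Rasal2 fell by 0.59 in WT and rose by 0.57 in dnHIF1a hearts (interaction 1.16 ± 0.16, adjusted p = 0.0051).

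The last 3 were less stable. Ehbp1 rose by 0.91 in dnHIF1a hearts against -0.25 in WT (interaction 1.16 ± 0.24, adjusted p = 0.0292). It was lost without unamputated WT 1, amputated WT 1 or 3, unamputated dnHIF1a 1 or 2, or amputated dnHIF1a 1 or 2 (up to 0.0788), gave 0.64 with the erythrocyte covariate, and had a second probe set at 0.34 that was not called. Rtca rose by 0.90 in dnHIF1a hearts against -0.28 in WT (interaction 1.18 ± 0.27, adjusted p = 0.046), lost without any array but the unamputated WT ones (up to 0.113). Irx5a fell by 0.85 in WT hearts, while the dnHIF1a difference was 0.40 (interaction 1.25 ± 0.28, adjusted p = 0.0378), lost without any array but unamputated WT 3, unamputated dnHIF1a 3 or amputated dnHIF1a 1 (up to 0.101).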

How the data were processed

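The deposited table holds log2 expression values of 12 Affymetrix zebrafish arrays, 1 column per array, made from 200 ng of heart RNA each. Per the submitters' processing notes the authors used RMA, which corrects background, normalises quantiles and summarises probes on the log2 scale, and limma, without stated versions. Array medians of 5.55 to 5.59 show that the values were already set on a common scale, and they were used as deposited.

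The interaction and 5 further contrasts of the 4 group means were fitted together over 15502 probe sets with limma 3.58.1 in R 4.3.3 (lmFit and eBayes, 8 residual and 4.46 prior degrees of freedom), with Benjamini-Hochberg adjustment over all probe sets and a threshold of 0.05. Platform annotation gave 10795 probe sets 1 gene, 135 several and 4572 none, and 10711 of the 10795 matched a RefSeq gene. A gene was read from its probe set of highest mean over the 12 arrays, 8793 genes in all. Named genes were up to 12 per direction with the largest called interaction, up to 2 called members per list and direction with the smallest p, and 24 fixed genes, leaving out clone-style names and genes under the median of all values, 73 in all. A gene that the rule names is not reported here. Exceptions are said to be named after their values were seen. The members and the 40 gene lists were chosen with earlier results of these data known, so list counts describe and do not test.

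On simulated data with 200 changed of 15502 probe sets, the interaction fit recovered 50.7% of 1.5-fold, 79.1% of 2-fold and 100% of 3-fold changes, with 3 false calls. The simulated noise was normal and independent between probe sets and arrays, and changes were added to amputated dnHIF1a arrays alone. Differences shared by many probe sets of an array were not simulated, so the 3 false calls give no error rate for the real arrays. Same-numbered arrays of different groups deviated together at r = -0.191 to 0.133. The labels name no pairing, so arrays were not treated as paired, but these correlations cannot exclude shared handling of equal numbers. At most 2.87% of values were identical between any 2 arrays. Alternatives were repeated quantile normalisation, median centring, filters on dim or flat probe sets, array weights, a variance prior that was trended and robust, a replicate block, the mean level of erythrocyte markers as covariate, no moderation, a floor of 1 log2 unit, and leaving out each array. No sequences or coordinates are given, and a promoter motif count that was planned was not run.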

Additional observations from a re-analysis of the deposited data

Results flagged for a closer look

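The response to amputation differed between WT and dnHIF1a hearts by the test of the difference itself for 347 probe sets, and among the named genes for the 55 given here with their interaction in log2 units. Among matrix and wound-cell genes these were postnb (-2.60), col1a1a (-1.27), col1a2 (-1.36), col5a2a (-1.02), mmp2 (-1.51), mmp14a (-0.97), aebp1b (-1.76), krt15 (-1.76) and anxa1a (-1.09). Secreted, signalling and vessel genes were tfa (-1.54), rbp4 (-0.88), igfbp2a (-1.44), fstl1b (-1.03), aqp8a.1 (-0.57), dusp4 (-0.94) and klf6a (-0.79). Growth-arrest, atrophy, hypoxia and clock genes were ccng2 (-2.26), tp53inp1 (-1.65), arrdc2 (-2.11), fbxo32 (-1.34), glula (-1.50), ddit4 (-2.62), cox4i2 (-0.89), nfil3-6 (-1.76) and ciarta (-1.26). Other genes with a lower response were musk (-3.23), ifi44f1 (-2.05), tppp3 (-1.99), zdhhc2 (-1.90) and nt5dc2 (-1.80). A higher response was found for the immunoproteasome and cytokine feedback genes psmb8a (1.60), psmb9a (1.12), psmb12 (1.35), psmb13a (1.22), socs3b (2.18) and cisha (1.67). It was found for the metabolic and folding genes odc1 (2.34), aldocb (1.01), pgam2 (0.62), uqcrh (0.36), wars1 (0.55), cpox (0.61), hspe1 (0.61) and hspa4a (1.12), and for the muscle and leukocyte genes ldb3a (0.59), desma (0.56) and grna (0.86). The remaining genes with a higher response were phlda3 (1.28), bcl2l10 (0.94), per2 (0.69), rasal2 (1.16), filip1b (1.28), ehbp1 (1.16), rtca (1.18) and irx5a (1.25). Of these 55, 29 passed the test without any single array.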

How the results depend on the processing

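No called interaction of a named gene changed sign in 1530 comparisons of the 73 genes with an alternative. The result, called or not called, stayed the same in 1237, the call was lost in 285 and gained in 8. Of the losses, 46 came under the erythrocyte covariate and 43 without moderation. All losses fell on the 56 genes called in the interaction, since the others had no call to lose. The number of interaction calls was 384 after repeated quantile normalisation, 339 after median centring, 381 and 394 without the 25% of probe sets that were dimmest and flattest, 328 with a trended and robust prior and 424 with array weights. With the replicate numbers as a block, though the labels name no pairing by number, it was 311, of which 275 were among the 347. The named genes aqp8a.1, ddit4, ehbp1, ifi44f1, irx5a, nfil3-6, uqcrh and wars1 then lost the call. Without moderation of variances it was 48 (20 higher, 28 lower), and 120 (37 higher, 83 lower) were called and at least 1 log2 unit in size.

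With the erythrocyte covariate there were 21 interaction calls (6 higher, 15 lower, 20 of them among the 347). The lists held 9 called genes in place of 69. WT response calls were 614 in place of 3532, and dnHIF1a response calls 1402 in place of 1511, so the WT count was then the smaller. Average response calls were 1609, and calls between the lines after amputation 721. The share of smaller responses in dnHIF1a was then 72.5% of rises and 74.8% of falls. The covariate itself changed with amputation in WT hearts, so the 2 cannot be told apart fully.

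Leaving out 1 array at a time gave 149 to 590 interaction calls (52 to 262 higher, 95 to 328 lower), 2599 to 3449 WT response calls, 909 to 1774 dnHIF1a response calls, 3397 to 4300 average response calls, 1182 to 1754 and 1138 to 2317 calls between the lines before and after amputation, and 37 to 107 called genes on the lists. The shares of smaller responses were 65.8% to 71.4% of rises and 65.0% to 71.5% of falls. Arrays hold no read depth; 3 arrays a group limit detection, and dim probe sets understate changes.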
